A study of Astragalus chrysochlorus with 2 samples.

Results

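The genes described here are 4 unigenes of Astragalus chrysochlorus callus whose names point to light perception, the circadian clock and the control of flowering time. They are a cryptochrome (CL9384.Contig1_All), a protein EARLY FLOWERING 3-like (Unigene27065_All), a CONSTANS-LIKE a (Unigene18901_All) and a two-component response regulator-like protein (Unigene40392_All), and the common ending of the identifiers is left out from here on. They were taken by identifier, 4 of the 82566 unigenes measured, and they were selected on their fragment counts in these same libraries, as genes higher in Se-treated callus. Their difference between the libraries is therefore given as a description, without a test. All 4 were found.

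The samples were 1 control library and 1 Se-treated library from long-term callus cultures, a tissue culture without organs. Both were grown on MS medium, a standard plant culture medium, with 0.5 mg/L of the synthetic auxin 2,4-D, and the Se-treated callus also received 5 mg/L sodium selenate. Culture was under a daily cycle of light and dark in a growth chamber, and the hour of harvest is not given in the sources used here. The study kept cultures in triplicate and does not say whether they were pooled, so with 1 library per condition no difference has a replicate check. In bulk tissue, more cells that express a gene and more RNA of that gene per cell cannot be told apart. Over the 82566 unigenes the control library averaged 203 fragments per unigene and the Se-treated library 202, with a median of 22 and 21, and the median log2 ratio of the 23264 unigenes with at least 50 fragments in each was -0.03.

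Plants read light through receptors such as the phytochromes, which sense red and far-red light, and the cryptochromes, which sense blue light. These signals set a circadian clock, a loop of transcription regulators that repress each other in turn over the day. The clock in turn times outputs such as flowering, where CONSTANS and its relatives link day length to floral induction in Arabidopsis. Transcripts of many of these genes rise and fall within each day.

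The names are protein matches to other legumes (Medicago truncatula, Glycine max and Pisum sativum) and are the only support for the roles given here. Of the 972 unigenes with such a name in the study's list of differentially expressed genes, 1 carries the name cryptochrome, 1 phytochrome, 1 CONSTANS, 2 EARLY FLOWERING 3 and 2 response regulator. None was found under the names LATE ELONGATED HYPOCOTYL, CIRCADIAN CLOCK ASSOCIATED, TIMING OF CAB EXPRESSION, GIGANTEA, ZEITLUPE, LUX ARRHYTHMO or phototropin. Only written-out names were searched, so a unigene listed under a short form or synonym would be missed. Unigenes outside that list have no name here, so the core loop of the clock was not analysed. The markers that would define callus could not be looked up for the same reason.

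All 4 genes were expressed in both libraries and stood at a higher level in Se-treated callus. Levels are given in FPKM, fragments scaled by the length of the unigene and the size of the library, with exact 95% Poisson intervals. Differences are log2 ratios, Se-treated over control, with an exact binomial 95% interval. Both intervals cover counting error only, since fragments amplified by PCR are not independent molecules.

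The cryptochrome (CL9384.Contig1) belongs to the family of blue-light receptors that descend from DNA-repairing photolyases, and its Medicago match is also recorded as a class I photolyase, so the name does not settle which of the functions it has. It held 117 fragments in the control library and 673 in the Se-treated library. This is a level of 6.11 FPKM (5.06 to 7.33) in control and 35.2 FPKM (32.6 to 38.0) in Se-treated callus. The intervals of the libraries lie far apart, and the log2 ratio was 2.53 (2.24 to 2.82), a 5.76-fold difference. Of the 4 genes it had the most fragments and the narrowest interval.

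A further contig of the same cluster, CL9384.Contig2, has no name in the study's list. Contigs of a cluster have similar sequences, so that reads can be shared or divided between them. CL9384.Contig2 had 21 fragments in control and 41 in Se-treated callus (2.06 and 4.04 FPKM), a log2 ratio of 0.97 (0.18 to 1.80). The ratio of CL9384.Contig1 was larger by 1.56 on the log2 scale (0.67 to 2.41). CL9384.Contig1 was selected for its high ratio in these libraries and CL9384.Contig2 was not, so this gap is a description and no test. CL9384.Contig1 held 84.8% of the cluster's fragments in control (exact binomial interval 77.7 to 90.3) and 94.3% in Se-treated callus (92.3 to 95.8). Summed over both contigs there were 138 and 714 fragments, a log2 ratio of 2.37 (2.11 to 2.65), and the cryptochrome cluster as a whole therefore remained more than 4-fold higher. Such a gap between contigs was not rare. Among 1958 clusters of 2 contigs with at least 50 fragments each, the median difference in log2 ratio was 0.59, and in 9.6% of them the difference was at least as large as in CL9384.

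EARLY FLOWERING 3 is, in Arabidopsis, a scaffold of the evening complex, which represses clock and growth genes at night and limits light input to the clock. Unigene27065, the EARLY FLOWERING 3-like unigene, had 93 fragments in control and 422 in Se-treated callus. Its level was 7.04 FPKM (5.68 to 8.62) in control, the highest of the 4 genes there, and 32.0 FPKM (29.0 to 35.2) in Se-treated callus. The log2 ratio was 2.18 (1.86 to 2.52), a 4.55-fold difference.

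CONSTANS-LIKE proteins carry B-box zinc fingers and a CCT domain and act as transcription regulators downstream of light and the clock. CONSTANS-LIKE a (Unigene18901) is a short unigene of 280 nt, which can cover only a part of such a protein. It had 31 fragments in control and 133 in Se-treated callus, or 6.62 FPKM (4.50 to 9.39) and 28.4 FPKM (23.8 to 33.7). The log2 ratio of 2.10 (1.53 to 2.72), or 4.30-fold, was the smallest of the 4.

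Two-component response regulators take phosphate from sensor kinases, as in cytokinin signalling. Some of the related pseudo-response regulators are parts of the plant clock, and the name of Unigene40392 does not tell which kind it is. This unigene of 347 nt had 12 fragments in control and 76 in Se-treated callus. It was the least abundant of the 4 in both libraries, at 2.07 FPKM (1.07 to 3.61) in control and 13.1 FPKM (10.3 to 16.4) in Se-treated callus. Its log2 ratio of 2.67 (1.78 to 3.68) was the largest and also the least precise, with a fold between 3.43 and 12.8.

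**Figure D1:**
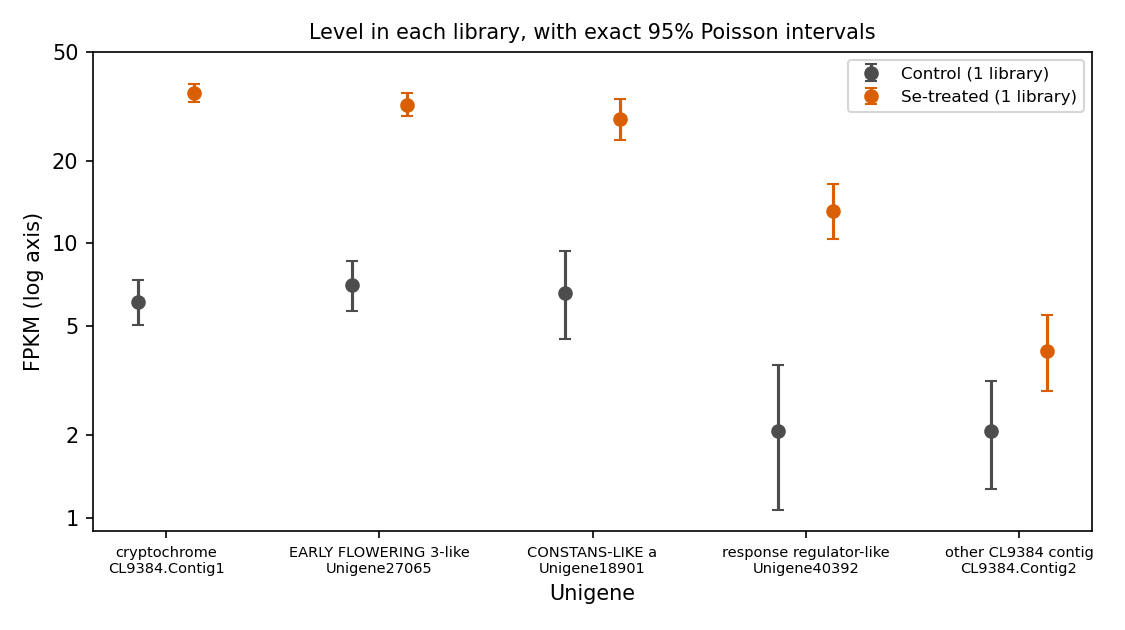
Level in FPKM (log axis) of the 4 genes and of the second CL9384 contig in the control library (grey) and the Se-treated library (orange), with exact 95% Poisson intervals and 1 library per condition. The cryptochrome, EARLY FLOWERING 3-like and CONSTANS-LIKE a points lie between 6.11 and 7.04 FPKM in control and between 28.4 and 35.2 FPKM in Se-treated callus, while the response regulator-like points lie lower, at 2.07 and 13.1 FPKM.

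Within the control library the order of levels was EARLY FLOWERING 3-like, CONSTANS-LIKE a, cryptochrome and response regulator-like. The intervals of the first 3 overlapped, and only the response regulator-like unigene stood apart, below all of them. In Se-treated callus the order was cryptochrome, EARLY FLOWERING 3-like, CONSTANS-LIKE a and response regulator-like. The intervals of neighbours in that order overlapped except for the last pair. The highest of the 4 levels was 3.40 times the lowest in control and 2.69 times in Se-treated callus.

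Among all unigenes, each of the 4 genes stood higher in the distribution of levels in Se-treated callus than in control. The cryptochrome stood at percentile 76.7 of FPKM in control and at 94.8 in Se-treated callus. EARLY FLOWERING 3-like stood at 79.2 and 94.3, and CONSTANS-LIKE a at 78.2 and 93.6. The response regulator-like unigene went from 44.9, below the median of all unigenes, to 87.0.

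The ratios of the 4 genes could not be separated from each other by their counts. In each of the 6 pairs the interval of the difference held 0. The widest gap was between CONSTANS-LIKE a and the response regulator-like unigene, -0.56 on the log2 scale (-1.74 to 0.54), and the narrowest interval was that of the cryptochrome against EARLY FLOWERING 3-like, 0.34 (-0.11 to 0.79). Differences in ratio of up to these bounds are thus compatible with the counts, and the intervals do not show that the genes responded alike.

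All 4 of the 4 genes had a log2 ratio of at least 2, and 5.31% of all 82566 unigenes did so in this direction (4381). Because the genes were named from a list with this very threshold, their count holds no information of its own. Just outside the threshold stood Unigene13164, with 250 fragments in control and 998 in Se-treated callus, and just inside it CL187.Contig4, with 59 and 236. The lower bound of the interval lay above 2 for the cryptochrome only. With 1 FPKM added to both libraries, the ratio of CONSTANS-LIKE a was 1.95, below the threshold.

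Large ratios were scarcer among unigenes of the same depth. Among the 7891 unigenes with as many fragments as the cryptochrome, within a factor of 2, 127 had a log2 ratio of at least 2 and 35 (0.444%) reached the cryptochrome's own. For EARLY FLOWERING 3-like 1.02% of 9550 such unigenes reached its ratio, for CONSTANS-LIKE a 1.69% of 16875 and for the response regulator-like unigene 0.636% of 22179. These shares place the genes in the distribution and are no test, since the ratios were what selected them.

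**Figure D2:**
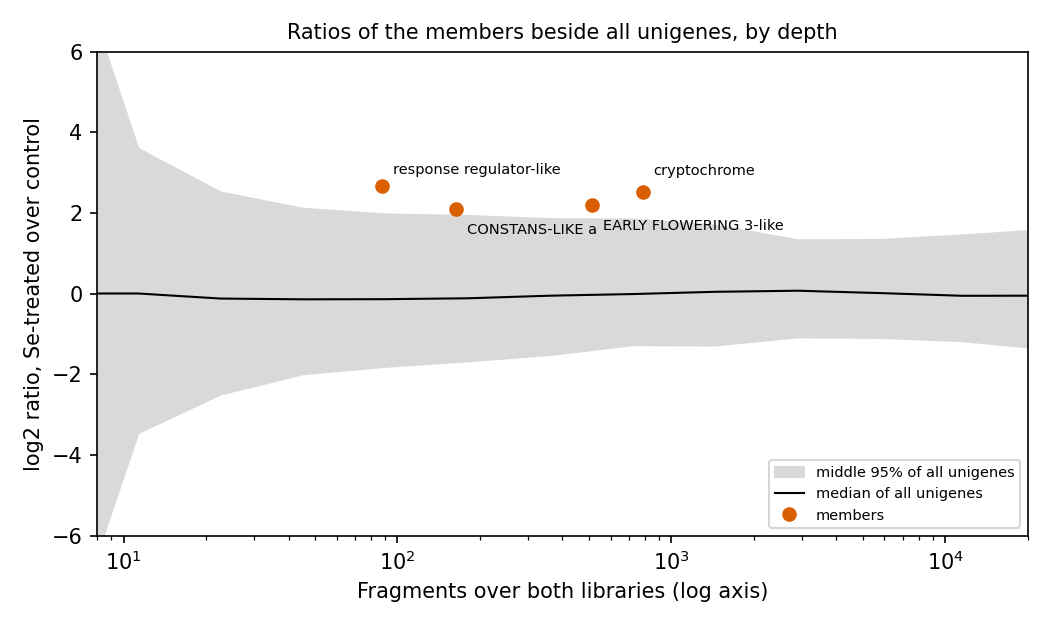
Log2 ratio (Se-treated over control) against the fragments over both libraries (log axis) for the 4 genes (orange), beside the median (line) and the middle 95% (grey band) of all unigenes of that depth. The 4 points, from 2.10 to 2.67, lie above the upper edge of the band, CONSTANS-LIKE a closest to it.

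The number of a unigene in the assembly went with its direction. This could be read for the 3 of the 4 genes that stand alone, and not for the cryptochrome, which is a cluster contig without such a number. Of the 974 other standalone unigenes numbered 40000 to 40999, among which the response regulator-like Unigene40392 lies, 75.1% had a higher level after selenate, their median log2 ratio was 0.90, and 22.4% had a log2 ratio of at least 2. EARLY FLOWERING 3-like lies among the numbers 27000 to 27999, where 49.1% of 999 were higher and 1.2% reached a log2 ratio of 2. CONSTANS-LIKE a lies among 18000 to 18999, where 47.8% of 999 were higher and 1.6% reached 2. The number range thus set the response regulator-like unigene apart from EARLY FLOWERING 3-like and CONSTANS-LIKE a, and its part in that unigene's ratio was not tested.

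**Figure D3:**
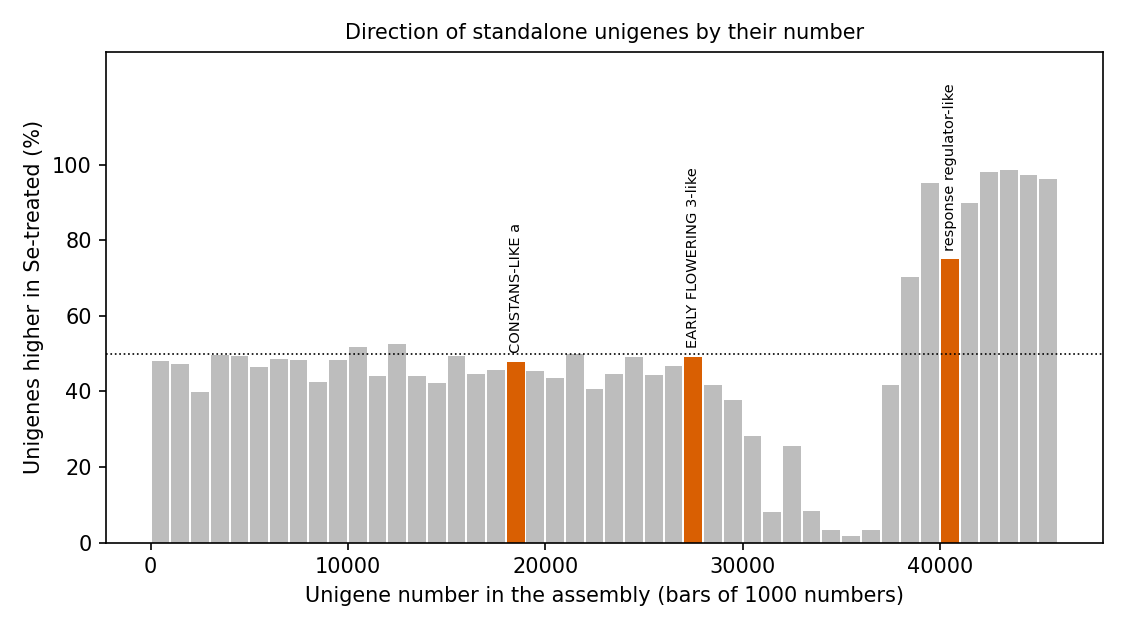
Percentage of standalone unigenes with a higher FPKM in Se-treated than in control callus, in bars of 1000 assembly numbers; the bars holding CONSTANS-LIKE a, EARLY FLOWERING 3-like and the response regulator-like unigene are orange, and the dotted line marks an even split. The bars of the first pair stand near 48% and 49%, that of the response regulator-like unigene at 75.1%, within a stretch of high bars.

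The other clock, light and flowering-time names were assembled into a list of 19 unigenes, of which 7 stood higher and 12 lower after selenate. All 19 lay beyond a log2 ratio of 2 or -2, as did 5.31% of all unigenes on the higher side and 4.97% on the lower side. This list too was taken from the study's selection at that threshold, so its counts are no independent evidence of direction. It also shrank when contigs were summed over their clusters, where 4 of the 19 kept such a ratio, all 4 standing alone in no cluster. Of the 12 lower unigenes, 9 were contigs of a single cluster named (6-4)DNA photolyase-like.

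Among the clock names, the second EARLY FLOWERING 3-like unigene, CL9853.Contig1, had 21 and 85 fragments (0.95 and 3.86 FPKM) and a log2 ratio of 2.02 (1.32 to 2.78). This is close to the ratio of Unigene27065, with a difference of 0.16 (-0.67 to 0.95), but both unigenes were selected at the same threshold. The level of Unigene27065 was 7.38 times that of CL9853.Contig1 in control and 8.28 times in Se-treated callus. The 4 contigs of CL9853 had log2 ratios from 0.27 to 2.02, the interval of 1 of them holding 0, and together they gave 0.91 (0.67 to 1.16). TIME FOR COFFEE (CL4592.Contig1), a nuclear regulator of the clock in Arabidopsis, had 27 and 112 fragments and a log2 ratio of 2.05, and both contigs of its cluster were higher (cluster 1.75, 1.31 to 2.20).

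The other response regulator name went the opposite way from its own cluster. APRR2-like (CL2620.Contig3) is named after an Arabidopsis pseudo-response regulator, and the name alone does not place it in the clock. It had 93 fragments in control and 20 in Se-treated callus, a log2 ratio of -2.21 (-2.99 to -1.51). The other 2 contigs of CL2620 were higher, and the 1176 and 2142 fragments of the whole cluster gave a log2 ratio of 0.87 (0.76 to 0.97). The named contig therefore does not represent the level of its cluster.

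A phytochrome and 2 light-signalling names stood on the higher side. Phytochrome E-like (Unigene39249), a red and far-red light receptor, had 25 fragments in control and 117 in Se-treated callus, a log2 ratio of 2.23 (1.60 to 2.91). It lies among numbers 39000 to 39999, where 95.1% of the other 999 were higher in Se-treated callus and 36.3% reached a log2 ratio of 2. FAR-RED ELONGATED HYPOCOTYL (CL6096.Contig2), a name from phytochrome A signalling, had 8 and 38 fragments (2.25), while the other contig of its cluster had 53 and 52, and the cluster had 0.56 (0.08 to 1.06). Root phototropism protein 3-like (Unigene41552), of the family that acts beside the blue-light receptor phototropin, had 1 and 31 fragments (4.96, 2.37 to 10.31).

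The flowering-time names were on either side. VRN1-like (Unigene41571), named after a factor of the response to winter cold, had 4 and 24 fragments (2.59), and HUA2-like (Unigene41244), named after a regulator of flowering genes, had 7 and 35 (2.32). Root phototropism protein 3-like, VRN1-like and HUA2-like all lie among the numbers 41000 to 41999. Beside each of them, 89.9% of the other 994 there were higher and 32.9% reached a log2 ratio of 2. HOS1 (CL422.Contig6), a ubiquitin ligase that in Arabidopsis acts on the CONSTANS protein and on cold responses, was lower, with 104 and 22 fragments, or 11.4 and 2.43 FPKM (-2.24, -2.97 to -1.56). The cluster had a log2 ratio of -1.29 (-1.65 to -0.94), with 45.2% of its control fragments in the named contig. All 6 contigs had a ratio below 0, but the interval of 4 of them held 0.

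The most abundant unigene of this list, an early light inducible protein (CL1671.Contig2), which binds chlorophyll and is made under light stress, was lower in Se-treated callus. It had 1458 fragments in control and 216 in Se-treated callus, or 89.7 and 13.3 FPKM, a log2 ratio of -2.75 (-2.97 to -2.55). All 9 contigs of CL1671 were lower, from -2.75 to -1.11, and the 7005 and 1869 fragments of the whole cluster gave -1.90 (-1.98 to -1.83).

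**Figure D4:**
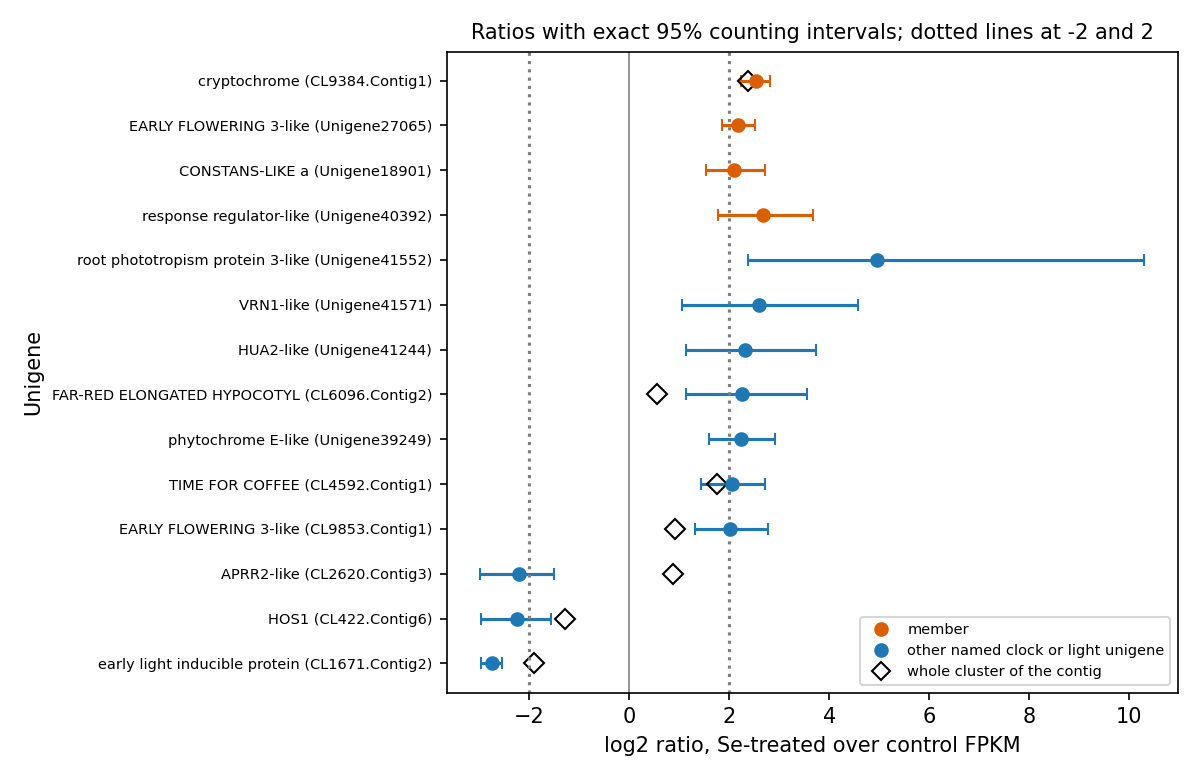
Log2 ratios, Se-treated over control, with exact 95% counting intervals for the 4 genes (orange) and 10 other unigenes with clock, light or flowering-time names (blue); open diamonds give the ratio of the whole cluster where a contig has cluster mates, and dotted lines mark -2 and 2. The diamond of the cryptochrome (2.37) stays beyond the dotted line, whereas those of the blue contigs lie nearer to 0. The diamond of APRR2-like (0.87) lies on the other side of 0. The cryptochrome contig holds 84.8% of its cluster's control fragments and the blue contigs between 7.9% and 47.4% of theirs, so its diamond mostly repeats the selected contig.

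A selection of chloroplast proteins from the study's list was taken as markers of greening in the callus, and its unigenes stood on either side. The mRNA was isolated with magnetic beads. Whether this captured transcripts of chloroplast-encoded and nuclear genes alike was not tested. Of the 9 named unigenes on this list, 6 stood higher and 3 lower after selenate, against 5.31% and 4.97% of all unigenes beyond a log2 ratio of 2 or -2. They too come from the study's selection at that threshold, and 2 of the 6 are contigs of CL881 and 2 of the 3 are contigs of CL5262, so the counts are no independent evidence. Their summed level was 41.6 FPKM in control and 175 FPKM in Se-treated callus. The 2 named contigs of CL881 held 53.5 and 27.4 FPKM of the sum in Se-treated callus. The chlorophyll-binding early light inducible protein (CL1671.Contig2) is not on this list. It had 89.7 FPKM in control and 13.3 FPKM in Se-treated callus. The chloroplast import component Toc159 (Unigene25512) is not on it either, and had 165 and 782 fragments, a log2 ratio of 2.25. The counts on either side depend on this choice. The summed levels therefore depend on which unigenes were listed and do not measure greening as a whole. Rubisco activase (CL881.Contig1), which keeps the carbon-fixing enzyme active, had 305 and 1572 fragments, a log2 ratio of 2.37. CL881.Contig2, of the same name, had 2.19. PsbP-like (Unigene5299), PGR5-like (Unigene11198) and an NAD(P)H-quinone oxidoreductase subunit (Unigene26101) had log2 ratios of 2.69, 2.46 and 2.48. PAM68-like (Unigene41220) had 5.67, from 1 fragment in control and 51 in Se-treated callus. The contigs named photosystem I P700 apoprotein A1 were lower, with 94 and 13 fragments in CL5262.Contig2 and 17 and 0 in CL5262.Contig3. The remaining contig of CL5262 had 46 and 104, and over the whole cluster there were 157 and 117, a log2 ratio of -0.42 (-0.78 to -0.07). The contig named photosystem II CP47 (CL952.Contig3) was lower at -2.19, and its cluster at -1.55. The part of these chloroplast transcripts in the levels of the 4 genes was not tested.

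Several named unigenes of other families had nearly the same pair of levels as the 4 genes. Likeness was measured as the distance between log2 FPKM values over the 2 libraries, which is only a pair of points. Nearest to the cryptochrome were a cinnamyl alcohol dehydrogenase (Unigene17125, 6.03 and 35.7 FPKM, distance 0.029), a phospholipase D alpha (Unigene29130, 0.032) and a cell division cycle protein 48 homolog (CL6328.Contig4, 0.047). Nearest to EARLY FLOWERING 3-like were an aminophospholipid ATPase (Unigene19738, 7.20 and 33.8 FPKM, distance 0.085), the chloroplast import component Toc159 (Unigene25512, 0.13) and a Lon protease-like protein (Unigene2267, 0.14).

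The same Lon protease-like protein was also the third nearest to CONSTANS-LIKE a (distance 0.11), after a calcium-dependent protein kinase (Unigene23170, 0.10) and a regulator of nonsense transcripts 1 homolog (Unigene8092, 0.10). Nearest to the response regulator-like unigene were a glutamyl-tRNA reductase precursor (Unigene6327, 2.07 and 13.3 FPKM, distance 0.022), a chaperone protein clpB (CL6370.Contig2, 0.067) and an ABC transporter B family member (Unigene7566, 0.086). None of the clock, light or flowering-time names was among the 3 nearest of any of the 4 genes. The neighbours were drawn from the 972 named unigenes. Of these, 663 stood higher in Se-treated callus, and only 7 of the 663 were on the list of other clock, light and flowering-time names. Their absence among the neighbours therefore holds little information.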

How the data were processed

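The authors cleaned the reads and built unigenes from them with Trinity, TGICL and Phrap. Blast matches gave the names, and SOAP was used for mapping. The deposited table holds raw fragment counts per unigene for either library, unigene lengths, FPKM, and the authors' own comparison (direction, P-value, FDR). Per library, the deposited counts are integers whose sum equals the total stated in the column header. The columns of the authors' comparison and their FPKM were not used. The column named for 5 ppm was matched to the Se-treated sample by the selenate dose in the labels.

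FPKM was computed from the fragments, the unigene lengths and the table totals. Log2 ratios use 0.001 FPKM in place of 0. Intervals are exact 95% intervals, Poisson for a level, Clopper-Pearson for a ratio or share and conditional for the difference of a pair of ratios. At 1 library per condition no test of the conditions is possible, and none was run. Ratios and intervals were run on simulated independent Poisson counts, with 200 changed unigenes of at least 50 fragments. The intervals assume the same model. The run therefore checks the computation and not how well the intervals hold in these data. Alternatives were 0.1 or 1 FPKM added, recentring, totals without the most abundant unigenes, filters on low counts, and sums over clusters.

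The genes and lists were chosen with earlier results of these data known. The text names the 4 genes, the other contigs of CL9384 and a selection of the chloroplast unigenes in the study's list. It also names the other unigenes in that list with clock, photoreceptor, light-signalling or flowering-time names, and their cluster mates. For each gene the 3 named unigenes nearest in level are given. The unigenes beside the threshold were named after their values were seen. The software was Python 3.11.15 (numpy 2.4.6, scipy 1.17.1, pandas 2.3.3), with figures drawn in matplotlib 3.10.9.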

Additional observations from a re-analysis of the deposited data

How the results depend on the processing

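The direction of each of the 4 genes and of the CL9384 cluster was the same under every alternative run, and each ratio stayed inside its counting interval. Added FPKM cannot change a direction. The median taken off in recentring was -0.03, and the totals without the most abundant unigenes shifted log2 ratios by -0.01. The unchanged direction was thus largely fixed in advance. The count of genes at a log2 ratio of at least 2 was 4 under each of them except with 1 FPKM added, where it was 3. The count of other clock and light unigenes at that size fell from 19 to 2 with 1 FPKM added and to 4 when fragments were summed over the cluster, and it was 15 with 0.1 FPKM added. The share of all unigenes at a log2 ratio of at least 2, 5.31%, was 3.22% with 0.1 FPKM added, 0.506% with 1 FPKM added and 1.92% among unigenes with at least 50 fragments over both libraries. Added FPKM shrinks ratios of low levels by construction. No replicate could be left out, and no paired analysis was possible because each condition has 1 library. Depth limits the response regulator-like unigene most, with 12 fragments in control.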

Other observations

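The photolyases, relatives of the cryptochromes that repair ultraviolet damage in DNA with the energy of blue light, shared a repeated pair of counts. The 9 contigs named (6-4)DNA photolyase-like all belong to the cluster CL35, and each of them had 16 fragments in control and 1 in Se-treated callus, although they differ in length. The cluster has 61 contigs, and 16 of them had this same pair of counts. All 61 contigs were lower in Se-treated callus, the least of them with a log2 ratio of -0.71, and summed over the cluster there were 1438 and 422 fragments, a log2 ratio of -1.77. Whether the same fragments were counted for several contigs was not tested.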
